A study of Canis lupus familiaris with 18 samples.

Results

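The question addressed here is whether a high dose of light changed a transcript by a different amount in dog kidney cells that carry a light-activated adenylyl cyclase than in the cells they were made from. For each gene this is a difference of differences on the log2 scale: the change from dark to high light in the bPAC line minus the change from dark to high light in the parental line. It uses 11 of the 18 libraries of the series, chosen by their labels and not by any measured value. They are 3 dark and 2 high light libraries of parental MDCKI cells, and 3 dark and 3 high light libraries of MDCKI cells with bPAC. Both lines were plated in medium with 0.5% FCS and without phenol red, and 16 h after plating they received no light, a low dose or a high dose for 2 h. The 7 low light libraries (3 parental, 4 bPAC) serve as a second dose for comparison.

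MDCKI is an epithelial line from dog kidney, widely used to study polarity and transport. bPAC is a bacterial enzyme that makes cyclic AMP (cAMP) when blue light reaches it. In animal cells cAMP releases the catalytic subunits of protein kinase A from their regulatory subunits, and the kinase then phosphorylates many targets, among them transcription factors of the CREB family that bind the promoters of early response genes. Light can also reach cells without the enzyme, by heating or by absorption in pigments and vitamins. The parental line at the same doses shows the response to light without bPAC. The lines may also differ in other ways, and an effect of bPAC cannot be told apart from these here. The sources used here give neither the intensity of each dose nor the promoter that drives bPAC, and do not say whether the bPAC line is 1 clone.

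The deposited tables carry Ensembl gene IDs for the dog and no symbols, and 0 of the 32220 IDs were found in the RefSeq gene table used here (assembly UU_Cfam_GSD_1.0). Genes are therefore named by ID, a few for each direction of a comparison, and what each encodes is not stated. For the same reason the markers of kidney epithelium could not be read, and lists of cAMP, stress or cell cycle genes could not be followed.

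The 11 libraries held 2638511 to 9610144 reads assigned to genes. Levels are given as CPM, counts scaled to the same total of gene reads in each library and adjusted by TMM, a method that brings most genes to the same level between libraries. A gene's CPM does not scale with transcript length because the kit reads from the 3' end. Of 32220 IDs, 8530 passed the filter on low counts and were tested. The first principal component of the 11 libraries held 40.7% of the variance. On it the bPAC high light libraries scored from 31.7 to 75.7, the parental high light libraries -4.98 and 4.83, and the 6 dark libraries from -38.9 to -6.84. These are bulk samples, in which fewer cells of a type and less RNA per cell cannot be told apart.

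At high light, 43 of the 8530 genes (0.504%) responded differently in the lines (edgeR quasi-likelihood test, adjusted p under 0.05). In 9 of them (0.106% of genes tested) the bPAC response was higher than the parental one, and in 34 (0.399%) it was lower. Each of the 43 differed by over 2-fold. The smallest difference among them was 1.26 and the largest 5.25 on the log2 scale. All 43 were also called in bPAC cells between high light and dark, with the same sign, where 24.6% of genes were called. None of the 43 was called in parental cells, where 0.176% of genes were called by edgeR (0.141% higher, 0.0352% lower). The interaction and these single-line tests use the same libraries, so the counts describe the 43 genes and do not test them again.

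**Figure D1:**
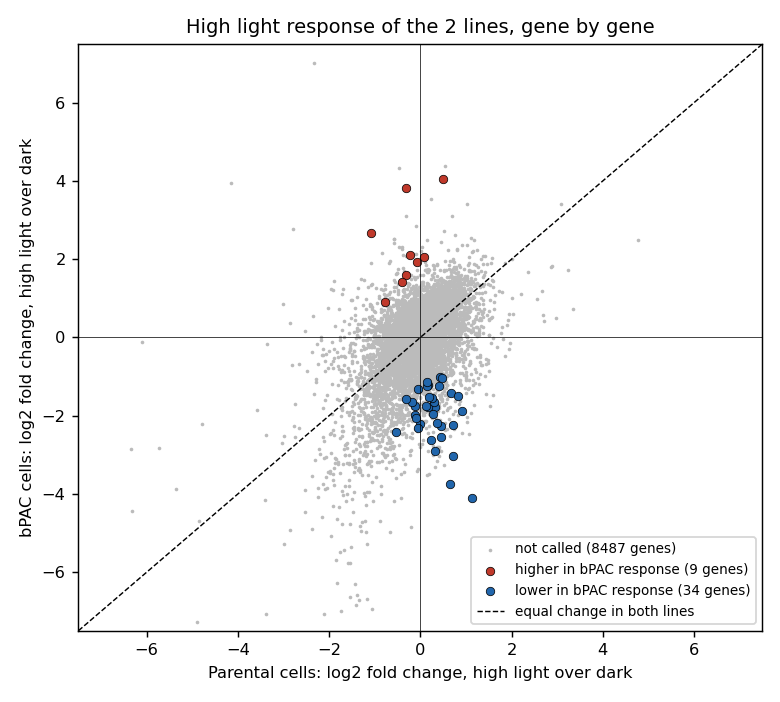
Each point is 1 of the 8530 tested genes, with its fitted log2 fold change from dark to high light in parental cells on the horizontal axis and in bPAC cells on the vertical axis. The 9 red and 34 blue genes called in the interaction lie far above or below the dashed line of equal change and close to 0 on the parental axis, while many grey genes far from 0 on the bPAC axis lie on the same side of 0 in both lines.

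The count of 43 depended on single libraries. Leaving out parental dark replicate 1 gave 84 genes, replicate 2 gave 18 and replicate 3 gave 24. Leaving out bPAC dark replicate 2 gave 22 and replicate 3 gave 27. Without parental high light replicate 1 it was 19, without replicate 2 18, and without bPAC high light replicate 1 or 2 it was 17 or 19. It was 68 without bPAC low light replicate 4, which is not part of the contrast but shares the filter, the scaling and the estimate of the spread. Of the 43 genes, 8 were called in each of the 18 fits that left out 1 library, and 7 of these, 1 higher and 6 lower, also in each of 10 other ways of processing. With libraries scaled by their total gene reads, without TMM, the interaction of the median gene moved from 0.05 to -0.21 on the log2 scale, and 8 genes were higher and 94 lower (92.2% lower, against 79.1% with TMM). The direction of each interaction is therefore relative to the bulk of genes.

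The bPAC line had the larger change in these genes. In each of the 43 genes the bPAC change was larger in size than the parental change, as it was in 64.2% of all genes tested. The bPAC change made up 86.0% of the summed absolute size of both changes in the median gene of the 43, and 54.0% at the lowest. This is not a share of the interaction, because a parental change of the same sign subtracts from it. The genes were also chosen on these changes. The 9 higher genes had a median log2 change of 2.06 in bPAC cells (from 0.91 to 4.05) and of -0.31 in parental cells (from -1.08 to 0.49). The 34 lower genes had medians of -1.78 in bPAC cells (from -4.12 to -1.02) and 0.27 in parental cells (from -0.54 to 1.13). Over all tested genes the medians were 0.03 and -0.02.

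By the sign of both changes the 43 genes formed 4 classes. In 25 genes the bPAC change was below 0 and the parental estimate above 0, and in 7 genes it was the reverse. In 9 genes both estimates were below 0, and in 2 genes both were above 0. The parental estimates of these genes were not called, so their sign is not established. At an unadjusted p under 0.05, edgeR gave a parental change in 7 of the 43. It did so in 1284 of all 8530 genes tested (15.1%).

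**Figure D2:**
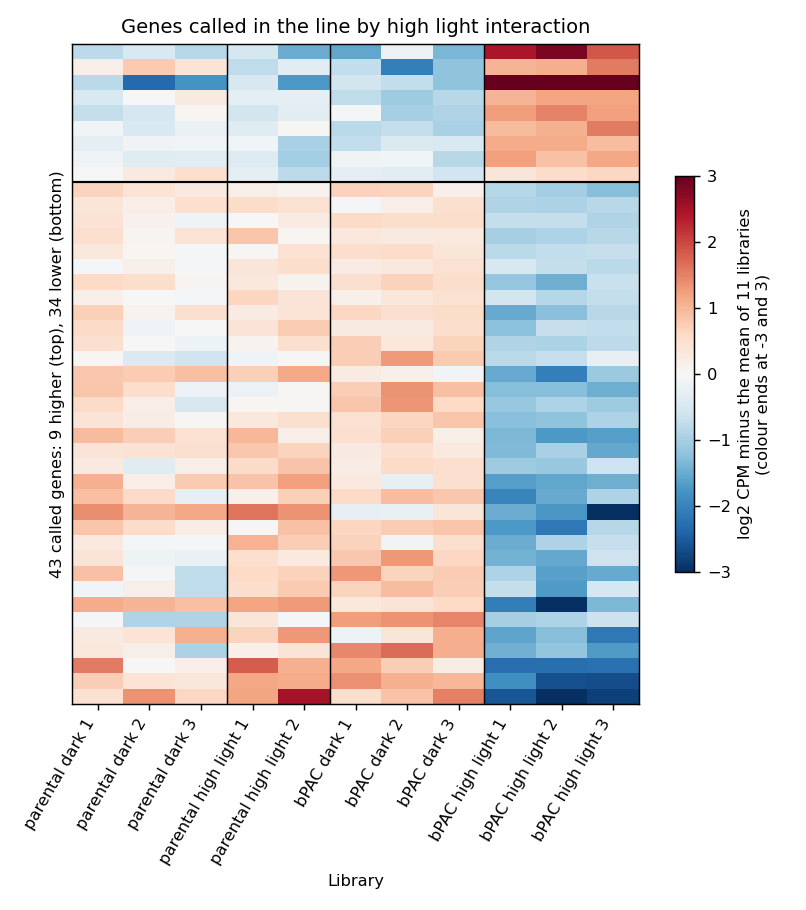
Each row is 1 of the 43 genes called in the interaction and each column 1 of the 11 libraries. Colour gives log2 CPM minus the gene's mean over the 11 libraries. The 9 genes above the black line are red and the 34 below it blue mainly in the 3 columns of bPAC high light, while the parental high light columns resemble the dark columns.

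Library by library, the bPAC high light group stood apart. In 8 of the 9 higher genes all 3 bPAC high light libraries lay above the other 8 libraries, which holds for 9.13% of all genes tested. In 31 of the 34 lower genes all 3 lay below the other 8, which holds for 7.71%. The genes were chosen by a test on these same libraries, which favours such separation. The counts therefore describe the genes and do not test them again. In parental cells the high light and dark libraries overlapped in 31 of the 43 genes and lay apart in 12. The share of all tested genes in which they lay apart is not given here. With so few parental libraries some genes would lie apart by chance, so the 12 are not evidence of a parental change.

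Among called genes with a higher bPAC response and a group mean of at least 5 CPM, the largest difference was that of ENSCAFG00000016204. It stood at 1.41, 1.88 and 1.36 CPM in the parental dark libraries and at 1.77 and 0.699 CPM in parental high light. In bPAC cells it stood at 0.639, 2.38 and 0.787 CPM in the dark and at 17.0, 22.1 and 11.2 CPM in high light. The bPAC high light libraries were the only ones of the 11 above 3 CPM, and the other groups overlapped. The change in bPAC cells was 14.1-fold (log2 3.82, SE 0.54, edgeR adjusted p = 0.000223). The interaction was 4.12 on the log2 scale (SE 0.89, 95% interval 2.26 to 5.99, edgeR adjusted p = 0.0409). This gene is scarce, with 50 reads in the other 8 libraries against 209 in bPAC high light, and its interaction was called in 9 of the 18 fits that left out 1 library. The adjusted p was 0.0971 and 0.0853 without parental dark replicates 2 and 3, 0.0957 and 0.0990 without bPAC dark replicates 1 and 3, 0.0715 and 0.210 without parental high light replicates 1 and 2, 0.103 and 0.121 without bPAC high light replicates 1 and 2, and 0.0536 without parental low light replicate 2. It was 0.0509 with a surrogate variable and 0.103 after thinning to the smallest library.

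In ENSCAFG00000016285 the lines started in one order and ended in the other. It stood at 4.83, 7.51 and 5.65 CPM in parental dark and 2.28 and 3.26 CPM in parental high light. In bPAC cells it stood at 2.34, 0.679 and 1.57 CPM in the dark and 8.99, 9.33 and 13.2 CPM in high light. All 3 parental dark libraries lay above all 3 bPAC dark libraries, and both parental high light libraries lay below all 3 bPAC high light libraries. Reads were few, at 11, 2 and 6 in bPAC dark and 55, 33 and 32 in bPAC high light. Parental cells had 48, 28 and 25 reads in the dark and 9 and 14 in high light. The bPAC rise was 6.33-fold (log2 2.66, SE 0.40, edgeR adjusted p = 0.000299), the parental estimate was -1.08 (SE 0.43, adjusted p = 0.234), and the interaction was 3.74 (SE 0.59, edgeR adjusted p = 0.00429). It was called in each of the 18 fits without 1 library, and missed the threshold (adjusted p = 0.0639) when the libraries were thinned to the depth of the smallest.

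ENSCAFG00000029284, abundant in both lines, had the smallest p of the higher genes. It stood at 548, 609 and 624 CPM in parental dark, 619 and 337 in parental high light, 393, 484 and 483 in bPAC dark, and 1426, 1424 and 1250 CPM in bPAC high light. The parental high light libraries overlapped the parental dark range, and the bPAC high light libraries each lay above all of the other 8. The interaction was 1.91 (SE 0.29, edgeR adjusted p = 0.00415), and it was the 1 higher gene called under every alternative.

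The 2 higher genes whose parental estimate was also above 0 were ENSCAFG00000009978 and ENSCAFG00000009209. The first went from 45.1, 47.9 and 40.4 to 153, 168 and 236 CPM in bPAC cells, and stood at 74.8, 57.9 and 68.9 CPM in parental dark and 61.8 and 81.0 CPM in parental high light. Its interaction was 1.98 (SE 0.36, edgeR adjusted p = 0.0120), with an adjusted p of 0.0948 without parental high light replicate 1. ENSCAFG00000009209 went from 31.5, 27.5 and 19.7 to 373, 544 and 386 CPM in bPAC cells. In parental cells it stood at 26.3, 8.85 and 12.9 CPM in the dark and 32.7 and 13.7 CPM in high light, which overlap. Its interaction was 3.56 (SE 0.62, edgeR adjusted p = 0.0120), with an adjusted p of 0.111 without parental high light replicate 2.

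**Figure D3:**
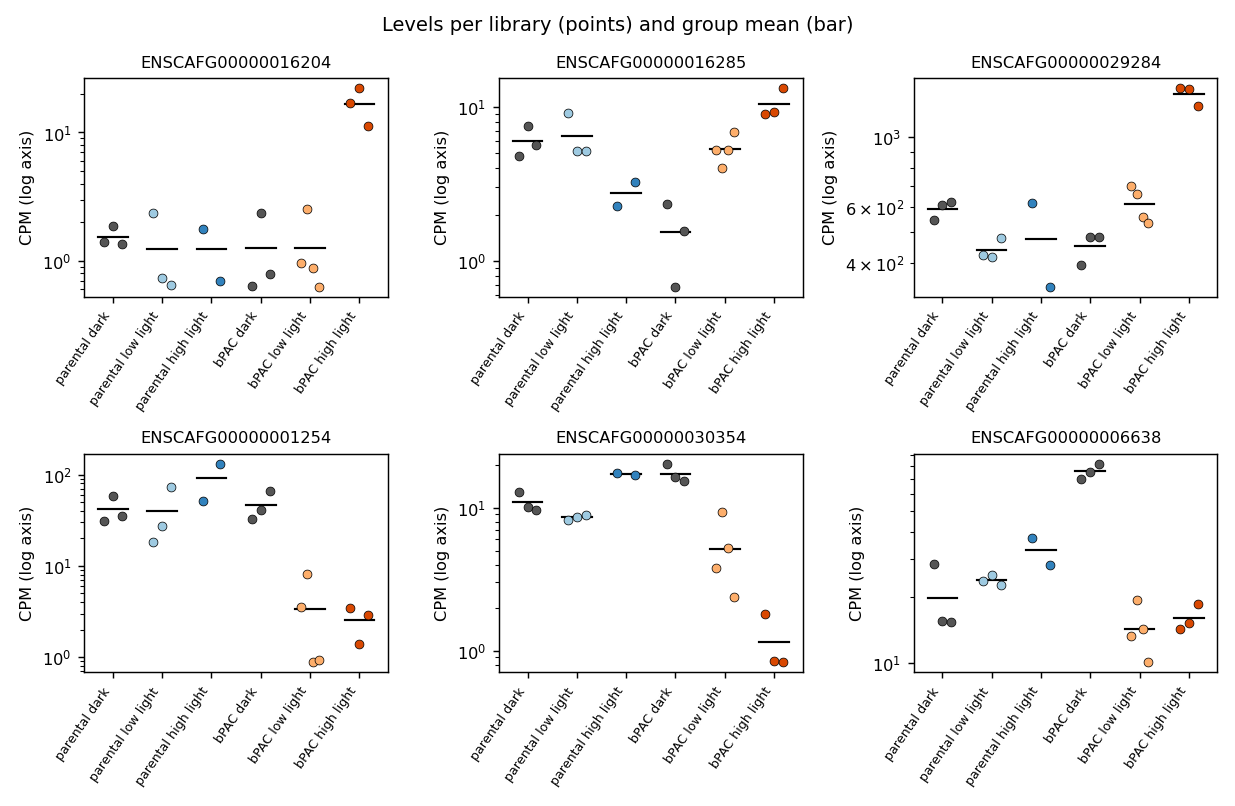
CPM of 6 genes on log axes in each of the 18 libraries (points, by group) with the group means (bars). In the top row the bPAC high light points lie above the parental high light points, and in the bottom row below them. Each gene of the bottom row is also lower in bPAC low light than in bPAC dark. The bPAC low light points lie at 0.878 to 8.24 CPM for ENSCAFG00000001254, 2.36 to 9.30 CPM for ENSCAFG00000030354 and 10.1 to 19.4 CPM for ENSCAFG00000006638.

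Among called genes with a lower bPAC response and a group mean of at least 5 CPM, the largest difference was that of ENSCAFG00000001254. It stood at 31.4, 58.7 and 35.3 CPM in parental dark and 51.9 and 130.2 CPM in parental high light. In bPAC cells it stood at 32.8, 41.1 and 65.6 CPM in the dark and 3.43, 1.41 and 2.89 CPM in high light. The dark ranges of the lines overlapped, and every bPAC high light library lay below the other 8. The bPAC fall was 17.3-fold (edgeR adjusted p = 0.00235), and the interaction was -5.25 (SE 1.02, 95% interval -7.42 to -3.07, edgeR adjusted p = 0.0339). It was called in 8 of the 18 fits without 1 library. The adjusted p was 0.0658 and 0.113 without parental dark replicates 2 and 3, 0.0691 and 0.0784 without bPAC dark replicates 2 and 3, and 0.0509 and 0.164 without parental high light replicates 1 and 2. It was 0.103, 0.128 and 0.0708 without bPAC high light replicates 1, 2 and 3, and 0.0509 without bPAC low light replicate 1. With a surrogate variable it was 0.0856, and after thinning 0.0519. At low light the bPAC libraries stood at 3.58, 8.24, 0.878 and 0.943 CPM, also below bPAC dark. The low dose interaction was -3.69 (SE 0.90, edgeR adjusted p = 0.535).

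ENSCAFG00000030354 stood at 12.9, 10.2 and 9.72 CPM in parental dark and 17.5 and 17.0 CPM in parental high light. In bPAC cells it went from 20.2, 16.3 and 15.5 CPM to 1.80, 0.849 and 0.827 CPM, or from 202 reads to 16. Both parental high light libraries lay above all 3 parental dark libraries, though that change was not called (log2 0.64, SE 0.37, adjusted p = 0.420), and the bPAC fall was 13.4-fold (edgeR adjusted p = 5.11e-05). The interaction was -4.38 (SE 0.57, edgeR adjusted p = 0.00126), and it was called under every alternative. At low light the bPAC libraries stood at 3.82, 9.30, 5.27 and 2.36 CPM, also below bPAC dark. The low dose interaction was -1.40 (SE 0.48, edgeR adjusted p = 0.809).

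The gene with the smallest p of all, ENSCAFG00000006638, differed between the lines before illumination. It stood at 70.2, 75.4 and 82.1 CPM in bPAC dark against 28.6, 15.6 and 15.4 CPM in parental dark. In high light it stood at 14.4, 15.3 and 18.6 CPM in bPAC cells and 37.7 and 28.2 CPM in parental cells. The line with more of this transcript in the dark had less of it in high light, with no overlap between lines in either condition. The interaction was -2.96 (SE 0.38, edgeR adjusted p = 0.00126), and it was called under every alternative.

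In 9 lower genes both estimates were below 0, and 2 of them are given here. ENSCAFG00000015505 went from 278, 322 and 221 to 76.8, 58.8 and 62.0 CPM in bPAC cells, against 375, 327 and 268 CPM in parental dark and 389 and 219 CPM in parental high light. Its interaction was -1.96 (SE 0.33, edgeR adjusted p = 0.00926), with an adjusted p of 0.0715 without parental high light replicate 1. ENSCAFG00000001825 went from 334, 311 and 322 to 76.0, 90.8 and 122 CPM in bPAC cells, while parental cells held 357, 233 and 304 CPM in the dark and 259 and 289 CPM in high light, within the dark range. Its interaction was -1.63 (SE 0.28, edgeR adjusted p = 0.00926), with an adjusted p of 0.0680 without parental high light replicate 2.

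High light widened the gap between the lines in most of these genes. On mean log2 CPM, the lines differed by more than 2-fold in the dark in 5 of the 43 genes and in high light in 40. The gap grew in 40 genes and shrank in 3, and in 33 the line with the higher mean in the dark had the lower mean in high light. Some dark gaps were small, at 0.13 for ENSCAFG00000001825 and 0.15 for ENSCAFG00000001254 on the log2 scale. For such genes the order of the lines in the dark is not established. All 34 lower genes had a lower mean in bPAC than in parental cells in high light, and 25 of them a higher mean in the dark. The genes were chosen on these same libraries, so the counts describe the form of the interaction only. The same counts were not made over all tested genes.

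The low light libraries took no part in choosing the 43 genes except through the shared filter, scaling and estimate of the spread. Between the lines at low light, 31 of the 34 lower genes had a lower mean log2 CPM in bPAC cells, with a median difference of -0.36, where 54.2% of all tested genes were lower, with a median of -0.05. Of the 9 higher genes, 7 had a higher mean in bPAC cells at low light, with a median of 0.47, where 45.8% of all tested genes were higher. These differences include any difference the lines already had in the dark, where the medians were 0.28 for the lower and -0.39 for the higher genes.

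**Figure D4:**
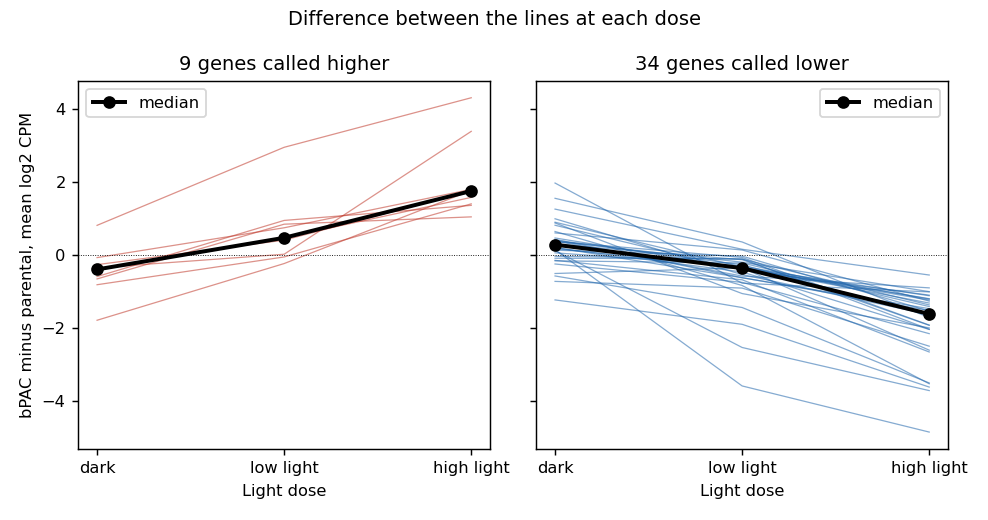
Difference between the lines (bPAC minus parental, mean log2 CPM) in dark, low and high light for the 9 genes called higher and the 34 called lower, 1 line per gene, with the median in black. The medians go from -0.39 through 0.47 to 1.75 and from 0.28 through -0.36 to -1.61; the dark and high light values chose the genes.

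The interaction was also tested at the low dose, which shares the 6 dark libraries with the high dose. There edgeR called 3 genes (0.0352%), 2 higher (0.0234%) and 1 lower (0.0117%). It gave 507 genes (5.94%) at an unadjusted p under 0.05, against 1185 (13.9%) at the high dose. Of genes that do not differ, a fraction of about 0.05 would fall under that threshold. A direct test of the difference between the 2 interactions, in which the dark libraries cancel, called 2 genes (0.0234%), both with a more negative interaction at the high dose. At an unadjusted p under 0.05 edgeR gave 251 genes with a more positive and 341 with a more negative one, together 6.94% of genes tested. DESeq2 called 8 with a more positive and 34 with a more negative one, limma-voom 1 and 4, edgeR without the filter 12 and 58, and edgeR with a surrogate variable 7 and 24. For the other genes a different interaction at the 2 doses was not established.

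Both genes of the direct test were lowest in bPAC high light. ENSCAFG00000000406 stood in bPAC cells at 102, 69.9 and 115 CPM in the dark, 141, 180.0, 192 and 196 CPM in low light and 26.0, 27.7 and 29.8 CPM in high light. In parental cells it stood at 173, 94.7 and 143 CPM in the dark, 218, 241 and 214 CPM in low light and 150.3 and 194 CPM in high light. Low light libraries were above the dark ones in both lines without overlap, and high light libraries were below them in bPAC cells only. Its interaction was 0.18 (SE 0.29, adjusted p = 0.899) at the low and -2.11 (SE 0.33, edgeR adjusted p = 0.00429) at the high dose, and the difference between them was -2.29 (SE 0.32, edgeR adjusted p = 0.00455).

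ENSCAFG00000016464 was steadier. It stood at 34.6, 35.4 and 36.8 CPM in parental dark, 40.6, 38.3 and 35.5 in parental low light and 46.3 and 41.9 CPM in parental high light. In bPAC cells it stood at 31.5, 37.3 and 32.0 CPM in the dark, 41.0, 37.0, 28.4 and 36.6 CPM in low light, and 10.1, 13.0 and 8.68 CPM in high light. The bPAC low light and dark libraries overlapped, and the high light libraries lay below both. The interaction was -0.01 (SE 0.26) at the low dose and -1.96 (SE 0.29, edgeR adjusted p = 0.00334) at the high dose. The difference of -1.96 (SE 0.28) had an edgeR adjusted p of 0.00455, and of 0.0540 in a fit of only the 4 illuminated groups.

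Of the 3 genes called at the low dose, 2 were also called at the high dose, with the same sign. ENSCAFG00000006638 had an interaction of -2.67 (SE 0.35, edgeR adjusted p = 0.00296) at the low dose, beside -2.96 at the high dose, and the difference was -0.29 (SE 0.38, adjusted p = 0.934). ENSCAFG00000018583 stood at 790.3, 957 and 1107 CPM in parental dark and 652 and 459 CPM in parental high light, and at 649, 623 and 533 CPM in bPAC dark and 1020, 1154 and 1224 CPM in bPAC high light. High light libraries lay below the dark ones in parental cells and above them in bPAC cells, though only the bPAC change was called (adjusted p = 0.00187, against 0.0954 in parental cells). In low light this gene stood at 772, 620 and 704 CPM in parental cells and 1536, 1190, 1130 and 1186 CPM in bPAC cells. Its interactions were 1.51 (SE 0.25) at the low and 1.69 (SE 0.27, edgeR adjusted p = 0.00523) at the high dose. The adjusted p at the high dose was 0.0736 without parental high light replicate 2. At the low dose it was 0.0182 with all libraries, 0.0635 and 0.0995 without parental dark replicates 2 and 3, 0.0699 and 0.0946 without bPAC dark replicates 2 and 3, and 0.120 and 0.0695 without parental low light replicates 2 and 3.

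The third gene, ENSCAFG00000016984, had its larger interaction at the low dose. In bPAC cells it stood at 86.0, 78.4 and 77.9 CPM in the dark, 578, 364, 367 and 522 CPM in low light and 176, 272 and 196 CPM in high light. In parental cells it stood at 62.1, 64.6 and 92.7 CPM in the dark, 96.8, 81.4 and 120.3 CPM in low light and 158 and 128 CPM in high light. High light libraries lay above the dark ones in both lines. At the high dose the bPAC rise was 2.66-fold (edgeR adjusted p = 0.000522), the parental estimate was 1.95-fold (adjusted p = 0.0954) and the interaction was 0.44 (SE 0.34, 95% interval -0.26 to 1.15, adjusted p = 0.563), against 2.06 (SE 0.31, edgeR adjusted p = 0.0113) at the low dose. The difference between the doses was -1.61 (SE 0.33, adjusted p = 0.0715). The low dose call was lost without parental dark replicate 3 (adjusted p = 0.0602), bPAC dark replicate 2 or 3 (0.0699 and 0.0650) or parental low light replicate 2 (0.0867).

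Most genes called in bPAC cells at high light were not called in the interaction. Of 2097 such genes, 2054 were not. The 43 that were made up 0.831% of the genes raised and 3.35% of those lowered in bPAC cells. The parental libraries, which share none with the bPAC comparison, tended to move the same way. Of the 1083 genes raised in bPAC cells, 84.9% had a parental estimate above 0 (48.5% of all tested genes did), with a median of 0.39 on the log2 scale. Of the 1014 lowered, 79.6% had a parental estimate below 0 (51.5% of all), with a median of -0.51. In bPAC cells, where they were chosen for their change, these lists had medians of 0.93 and -1.52. Over all 8530 genes the signs matched in 65.0%, and the changes of the lines correlated at Pearson's r = 0.488 and Spearman's rho = 0.447. This correlation runs across genes of the same libraries, and genes do not count as replicates.

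Some of the largest changes of bPAC cells did not pass the interaction test. ENSCAFG00000011598 stood at 42.1, 50.9 and 51.9 CPM in bPAC dark and at 4 reads in all in bPAC high light. In parental cells it stood at 32.0, 20.7 and 2.03 CPM in the dark and 0.759 and 7.68 CPM in high light, so that parental dark replicate 3 lay with the illuminated libraries. Its interaction had an edgeR adjusted p of 0.306. ENSCAFG00000010615 had 145 reads in bPAC dark and 1 in bPAC high light, and stood at 11.2, 10.7 and 0.678 CPM in parental dark and 0.506 and 5.12 CPM in parental high light. The same parental dark library was low, and the adjusted p of its interaction was 0.272. ENSCAFG00000039271 had 72 reads in bPAC high light, 3 in bPAC dark, 3 in parental dark and 1 in parental high light, and an adjusted p of 0.323 for the interaction. With so few reads the fitted changes of these 3 genes depend on the prior count and are not given as folds. In a fit without the filter on low counts, ENSCAFG00000011598 and ENSCAFG00000010615 passed the interaction test (adjusted p = 6.68e-10 and 1.16e-05).

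In the other direction, genes called in parental cells at high light did not pass the interaction test. All 12 raised genes had a bPAC estimate above 0, and 11 of them were called in bPAC cells too, where 12.7% of genes were called higher. Their median log2 change was 1.31 in parental and 1.62 in bPAC cells. All 3 lowered genes had a bPAC estimate below 0, and 1 was called. None of the 15 passed the interaction test in edgeR as reported, and ENSCAFG00000000640 and ENSCAFG00000006164 passed it without the filter on low counts (adjusted p = 0.000155 and 0.0413). The calls in parental cells rest on 2 high light libraries, and 2 to 37 genes were called there when any 1 of the 18 libraries was left out.

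ENSCAFG00000006164 rose in both lines. It stood at 120.2, 129 and 127 CPM in parental dark and 1172 and 690.1 CPM in parental high light, and at 202, 225 and 377 CPM in bPAC dark and 754, 702 and 1367 CPM in bPAC high light. The high light levels of the lines overlapped and the dark levels did not. The rise was 7.42-fold in parental cells (edgeR adjusted p = 2.03e-05) and 3.51-fold in bPAC cells (0.000242), and the interaction of -1.08 (SE 0.38, 95% interval -1.88 to -0.28) had an edgeR adjusted p of 0.243, and of 0.0413 without the filter.

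ENSCAFG00000000640 had the largest parental rise among called genes with a group mean of at least 5 CPM. It stood at 5.63, 5.63 and 5.65 CPM in parental dark and 22.5 and 92.0 CPM in parental high light, and at 2.98, 3.06 and 4.98 CPM in bPAC dark and 5.07, 9.33 and 3.72 CPM in bPAC high light. The bPAC groups overlapped and the parental groups did not. The parental rise had an edgeR adjusted p of 0.0142, and it was 0.112 and 0.101 when parental dark replicate 2 or 3 was left out and 0.287 when parental high light replicate 2 was. It was 0.188 in a fit of only the groups compared. Its interaction of -2.61 (SE 0.77) had an edgeR adjusted p of 0.161. It passed without parental high light replicate 1 (0.0402), without the filter on low counts (0.000155) and by DESeq2 (0.0438).

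Among called genes with a group mean of at least 5 CPM, the 2 with the largest parental falls had smaller estimates in bPAC cells, which were not called. ENSCAFG00000018917 stood at 277, 367 and 422 CPM in parental dark and 160.2 and 99.0 CPM in parental high light, against 205, 207 and 139.8 CPM and 148, 145 and 139 CPM in bPAC cells. Its interaction was 1.10 (SE 0.32, adjusted p = 0.161). The parental fall had an edgeR adjusted p of 0.0218, which was 0.112 and 0.101 when parental dark replicate 2 or 3 was left out, 0.287 when parental high light replicate 2 was, and 0.188 with only the groups compared. ENSCAFG00000015499 stood at 6.94, 13.4 and 11.98 CPM and 3.29 and 2.33 CPM in parental cells, and at 7.66, 5.77 and 5.51 CPM and 4.41, 4.24 and 3.72 CPM in bPAC cells. Its interaction was 1.30 (SE 0.51, adjusted p = 0.282). The parental fall had an edgeR adjusted p of 0.0491, just inside the threshold, and missed it in 14 of the 18 fits without 1 library (at most 0.352, without parental high light replicate 2) and in 7 of 10 other alternatives.

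The interaction was less precise than the change of 1 line. The median SE of its log2 value was 0.47, against 0.32 for the bPAC change alone. The SE fell with abundance, from a median of 0.74 among 3220 genes with a mean under 10 CPM, of which 6 were called, to 0.42 among 2677 genes from 10 to 50 CPM (17 called) and 0.32 among 2633 genes from 50 CPM upward (20 called). For 1734 genes (20.3%) the 95% interval of the interaction lay within 2-fold either way. For the other 6796 it reached beyond 2-fold in at least 1 direction. At an unadjusted p under 0.05 there were 1185 genes (13.9%), 570 higher and 615 lower, and the bPAC change was the larger in 932 of them. The last gene called had an adjusted p of 0.0492 and the next 0.0538, and 31 genes lay between 0.05 and 0.1.

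**Figure D5:**
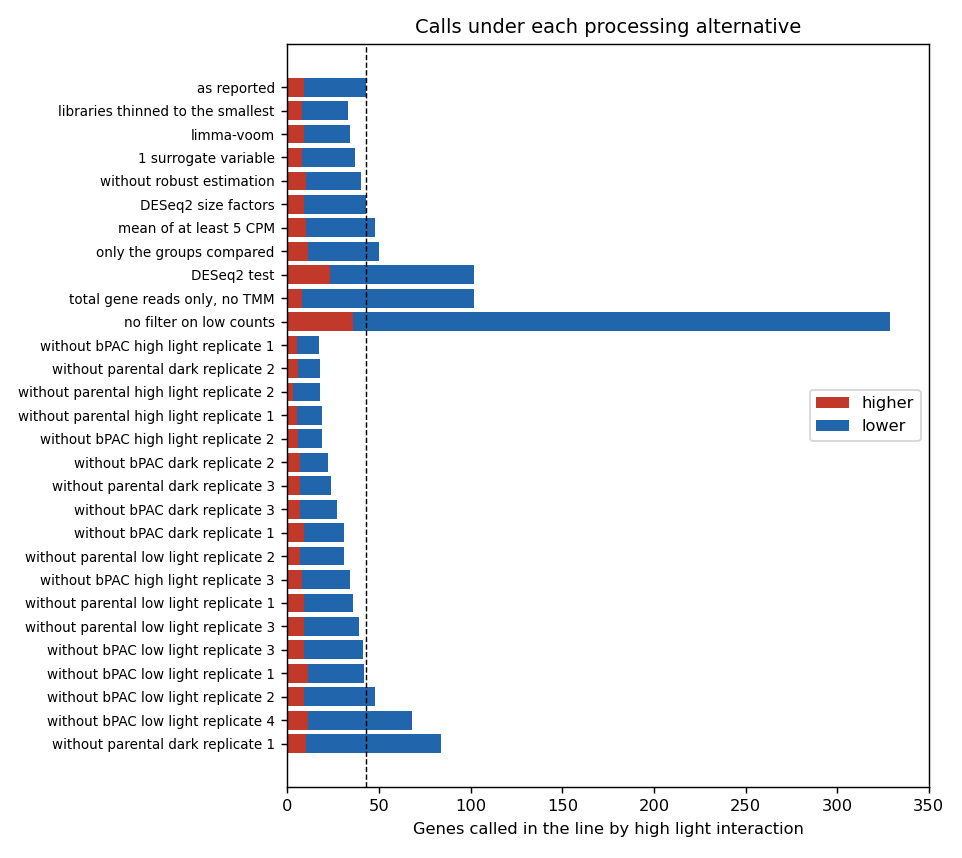
Number of genes called in the interaction at high light, higher in red and lower in blue, as reported (dashed line at 43) and under each alternative processing or with 1 library left out. Lower genes outnumber higher ones in every bar; the longest bar, 329 genes, is the fit without a filter on low counts.

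Several technical measures moved with the bPAC high light group. Reads without a unique alignment were 41.7% to 44.4% of all reads there and 38.5% to 39.9% in bPAC dark. In parental cells they made up 38.9% and 44.2% in high light and 39.6% to 40.4% in the dark. The TMM scaling factors were 0.785 to 0.918 in bPAC high light and 0.992 to 1.13 in the other 8 libraries. The 10 most abundant genes took 17.2% to 21.2% of gene reads in bPAC high light and 13.3% to 15.2% in the other 8 libraries. The part of these measures in the 43 calls was not tested.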

How the data were processed

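Expression was measured in 18 libraries made with Lexogen's QuantSeq 3' FWD kit, per the labels' protocols. Reads were placed on CanFam3.1, as the submitters' processing notes name it. For the aligner, counter and annotation release the sources used here give nothing. The authors deposited whole-number read counts per gene ID, not normalised, with 5 further rows for reads without a gene, which entered neither library sizes nor tests. Those rows held 66.1% to 70.6% of a table's reads. A 3' count depends on how well a gene's 3' end is annotated, and genes with near copies lose reads.

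All 18 libraries entered 1 edgeR 4.0.16 model of 6 groups (R 4.3.3; filterByExpr with a minimum count of 10, TMM, robust glmQLFit and glmQLFTest), and p-values were adjusted by Benjamini-Hochberg over 8530 genes at 0.05. An SE is the absolute log2 value divided by the square root of F. Mean log2 CPM used a prior count of 2. The script was tested on simulated data. The 5 contrasts were the interaction at each dose, the difference between these, and high light against dark in each line. Nothing in the labels says that replicates were separate cultures, and p-values then reflect library-to-library spread only, which may be technical. Chi-square per degree of freedom over the 19 pairs of replicates lay between 8.43 and 63.9, so none agreed within sampling noise.

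Named genes are, per contrast, the 2 largest changes per direction among called genes reaching a group mean of 5 CPM, and per sign class of the interaction the 2 with the smallest p. Members, lists and rules were chosen with earlier results of these data known. Lists by gene symbol were not used because the IDs carry no symbols. Alternatives were DESeq2 size factors, DESeq2 1.42.0, limma-voom 3.58.1, 2 other filters, no robust estimation, only the groups compared, 1 surrogate variable (sva 3.50.0) and leaving out each library. Scaling by total gene reads and thinning to 2638511 reads were added after the data were seen.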

Additional observations from a re-analysis of the deposited data

Results flagged for a closer look

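The named genes whose response to high light differed between the lines, by edgeR's test of the interaction, are listed here with their log2 interaction. It was 4.12 for ENSCAFG00000016204, 3.74 for ENSCAFG00000016285, 3.56 for ENSCAFG00000009209, 1.98 for ENSCAFG00000009978, 1.91 for ENSCAFG00000029284 and 1.69 for ENSCAFG00000018583. It was -5.25 for ENSCAFG00000001254, -4.38 for ENSCAFG00000030354, -2.96 for ENSCAFG00000006638, -2.11 for ENSCAFG00000000406, -1.96 for ENSCAFG00000016464, -1.96 for ENSCAFG00000015505 and -1.63 for ENSCAFG00000001825. At the low dose the log2 interaction was 2.06 for ENSCAFG00000016984, 1.51 for ENSCAFG00000018583 and -2.67 for ENSCAFG00000006638. The interaction differed between the doses by -2.29 for ENSCAFG00000000406 and by -1.96 for ENSCAFG00000016464.

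In 2 of the 21 named genes 1 of the 4 bPAC low light libraries lay far from the rest (Dixon's criterion, which flags about 1 in 20 groups by chance). ENSCAFG00000016204 stood at 2.54 CPM in bPAC low light 2, against 0.629 to 0.954 CPM in the other three. ENSCAFG00000018583 stood at 1536 CPM in bPAC low light 1, against 1130 to 1190 CPM.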

How the results depend on the processing

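No paired analysis was possible because the labels give no replicate numbers; those used here follow accession order within a group, only name a library and pair none. No interaction of a named gene changed sign under any alternative. The interaction at high light called 329 genes without a filter (42 of the 43 among them, with 16648 genes tested), 102 by DESeq2's test (all 43 among them) and 102 without TMM; the cause was not tested. The low dose interaction called 76 without a filter, 13 by DESeq2 and 5 with a surrogate variable. The difference between doses called 70 without a filter, 42 by DESeq2, 5 by limma-voom, 1 with only the groups compared, 31 with a surrogate variable, 27 without TMM and 9 after thinning. High light in parental cells called 7 with DESeq2 size factors, 227 without a filter, 6 above 5 CPM, 6 without robust estimation, 135 by DESeq2, 5 by limma-voom, 2 with only the groups compared and 266 with a surrogate variable. With 1 library left out, the counts ranged from 17 to 84 for the interaction at high light, 1 to 6 at low light, 2 to 8 for their difference, 937 to 2357 for high light in bPAC cells and 2 to 37 in parental cells. The share of genes with the same sign in both lines ranged from 60.3% without parental dark replicate 1 to 68.4% without replicate 3. Without 1 parental high light library the other is assumed to vary like the rest.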
